A study of Arabidopsis thaliana with 18 samples.

Results

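Root RNA of 2 Arabidopsis thaliana double mutants was compared: nac085-1 rab8d-2 against nac044-1 rab8d-2. Each genotype has 3 libraries, so that 6 of the 18 libraries of the study carry the comparison, and all genes in the table were used. The roots came from seedlings of 4 days, grown without treatment on medium with 1% sucrose in cycles of 16 h of light and 8 h of darkness. Both double mutants carry rab8d-2, a mutation of RAB8D, and differ in the added allele, nac085-1 or nac044-1. The rab8d-2 single mutant and the wild type (WT), with 3 libraries each, serve as points of reference, while the atm-2 rab8d-2 and sog1-1 rab8d-2 libraries enter the fit. The labels do not say what lesion an allele carries, how the double mutants were produced or how separately the replicates were grown, so p-values cover only the spread among these samples, which may be technical. For rab8d-2 the titles were followed, since the genotype entry of its libraries reads as wild type.

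RAB8D encodes the plastid elongation factor EF-Tu, which brings aminoacyl-tRNAs to the plastid ribosome. In the plant DNA damage response, the kinases ATM and ATR activate the transcription factor SOG1, which turns on repair genes, inhibitors of cyclin-dependent kinases and further NAC factors. NAC044 and NAC085 are closely related NAC proteins that act below SOG1, and are known for repressing G2 and mitosis genes in damaged root tips, through the repressor-type MYB3R proteins. The comparison sets an allele of one of the pair against an allele of the other in the same plastid mutant.

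The 18 libraries held 20103634 to 20471203 estimated counts each, and levels below are normalised CPM, read counts scaled to a common library size. NAC044 (AT3G01600) had 13.8, 12.9 and 12.3 CPM in nac085-1 rab8d-2, against 157, 164 and 158 CPM in the libraries labelled nac044-1 rab8d-2. The libraries named after an allele of NAC044 therefore held the most NAC044 RNA, also above the 19.4 CPM of rab8d-2 and the 5.17 CPM of WT. The log2 fold change was -3.62 ± 0.05 (SE, 3 libraries each, edgeR adjusted p = 8.32e-47). This RNA level goes against a simple reading of the label, and whether the transcript is complete cannot be read from counts per gene. The genotype is therefore written as a label, and each direction below is relative to libraries with this high NAC044 RNA, whose cause was not tested.

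NAC085 (AT5G14490) had 0.971, 1.33 and 0.446 CPM in nac085-1 rab8d-2, against 1.79, 1.59 and 2.33 CPM in the libraries labelled nac044-1 rab8d-2. The groups did not overlap, and the level was lower in nac085-1 rab8d-2 by a log2 fold change of -1.05 ± 0.26 (adjusted p = 5.48e-04). NAC085 averaged 1.73 CPM in rab8d-2 and 0.635 CPM in WT, so its RNA was scarce in every genotype. RAB8D (AT4G20360) had 14.6, 15.9 and 15.6 CPM in nac085-1 rab8d-2 and 15.5, 15.3 and 13 CPM in the libraries labelled nac044-1 rab8d-2. These ranges overlap (0.07 ± 0.08, adjusted p = 0.429), and both lie far under the 90.2 CPM of WT. SOG1 did not pass the test (0.09 ± 0.05, adjusted p = 0.126). ATM had 35.6, 39.9 and 39.3 CPM in nac085-1 rab8d-2, against 58.5, 58.4 and 58.8 CPM in the libraries labelled nac044-1 rab8d-2, a log2 fold change of -0.61 ± 0.04 (adjusted p = 1.11e-16).

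**Figure D1:**
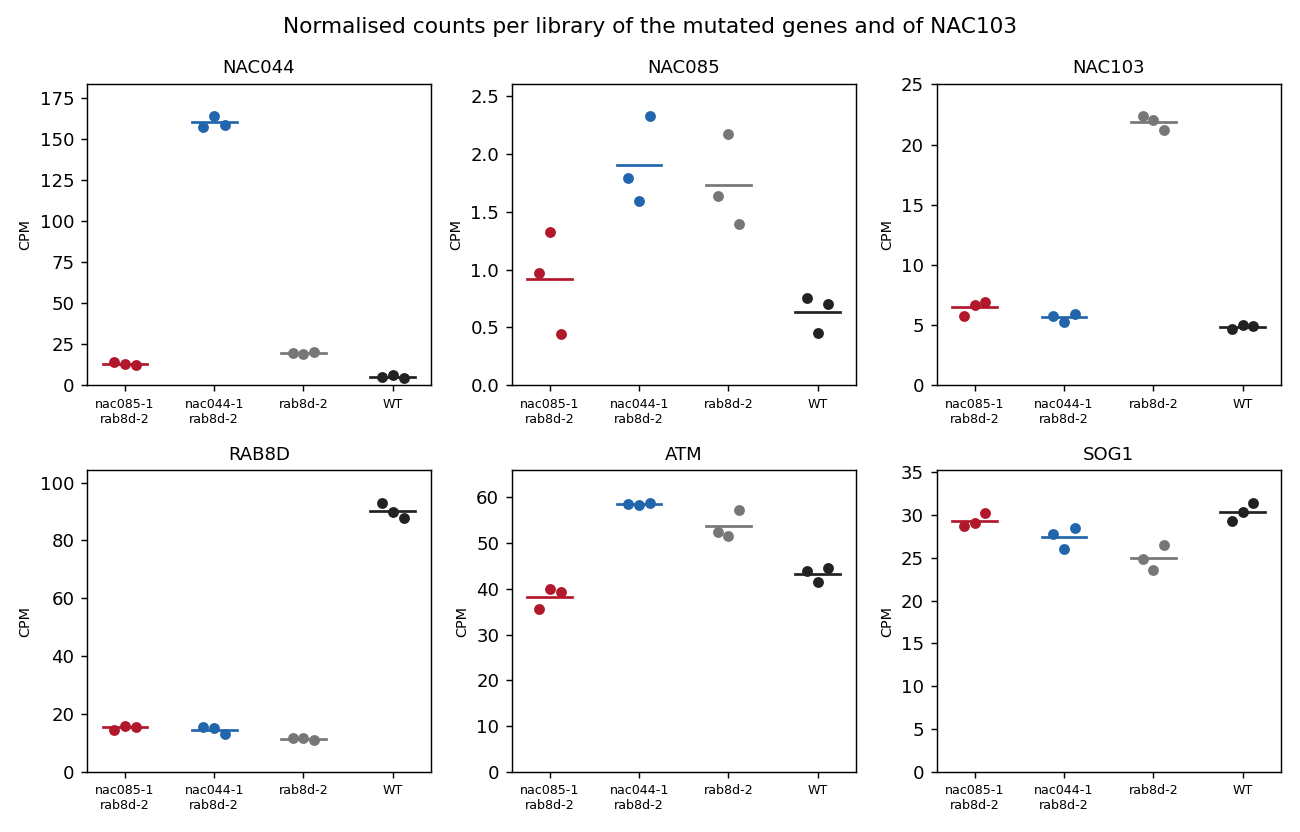
Normalised counts (CPM, linear axes from 0) of NAC044, NAC085, NAC103, RAB8D, ATM and SOG1 in each library of nac085-1 rab8d-2, the libraries labelled nac044-1 rab8d-2, rab8d-2 and WT. Points are libraries and bars are means of 3; NAC044 stands at 157 to 164 CPM in the libraries labelled nac044-1 rab8d-2 and at 12.3 to 13.8 CPM in nac085-1 rab8d-2.

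Among the 5 tested genes on either side of NAC044, the immediate neighbour CDC48C, which encodes an AAA-type ATPase, had 41.3, 43.5 and 40.7 CPM in nac085-1 rab8d-2, against 60.8, 56.9 and 56.6 CPM in the libraries labelled nac044-1 rab8d-2. Its level in nac085-1 rab8d-2 was close to the 39.7 CPM of rab8d-2, and the log2 fold change between the double mutants was -0.47 ± 0.04 (adjusted p = 8.49e-14). SEOR1 and SEOR2, which encode sieve element filament proteins, were higher in nac085-1 rab8d-2, by 0.46 ± 0.05 and 0.37 ± 0.05. The 10 neighbours of NAC044 ran from AT3G01580 at -0.54 ± 0.15 to AT3G01560 at 0.49 ± 0.06, and AT3G01590, on the other side of NAC044 from CDC48C, was lower by -0.26 ± 0.04. The 10 tested neighbours of NAC085 had log2 fold changes between -0.52 and 0.07.

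Of 19981 tested genes, 5856 were higher and 5825 lower in nac085-1 rab8d-2 than in the libraries labelled nac044-1 rab8d-2 at an adjusted p under 0.05, or 58.5% of genes. Most of these differences were small: 67.91% of the called genes differed by less than 1.5-fold, and against a fold of 1.2 (glmTreat) 2912 were higher and 2642 lower. At least 2-fold, 918 genes (4.59%) were higher and 879 (4.4%) lower, together 8.99%. In 62.4% of genes the 3 libraries of one genotype all lay above the 3 of the other. Libraries within a genotype differed little, with a biological coefficient of variation of 2.38%. Against rab8d-2, which both comparisons share, 63.5% of genes were called in nac085-1 rab8d-2 and 42.9% in the libraries labelled nac044-1 rab8d-2. At least 2-fold, 1019 genes were at least 2-fold higher and 892 lower in nac085-1 rab8d-2, while 148 were higher and 331 lower in the libraries labelled nac044-1 rab8d-2. On the first principal component, with 47.6% of the variance, the nac085-1 rab8d-2 libraries lay at 35.7 to 36.2 and the libraries labelled nac044-1 rab8d-2 at -21.3 to -20.8. The rab8d-2 libraries lay at -16.3 to -15.9 and the atm-2 rab8d-2 libraries at 47.1 to 47.9. The share of called genes was 57.9% to 59.2% on each of the 5 chromosomes.

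**Figure D2:**
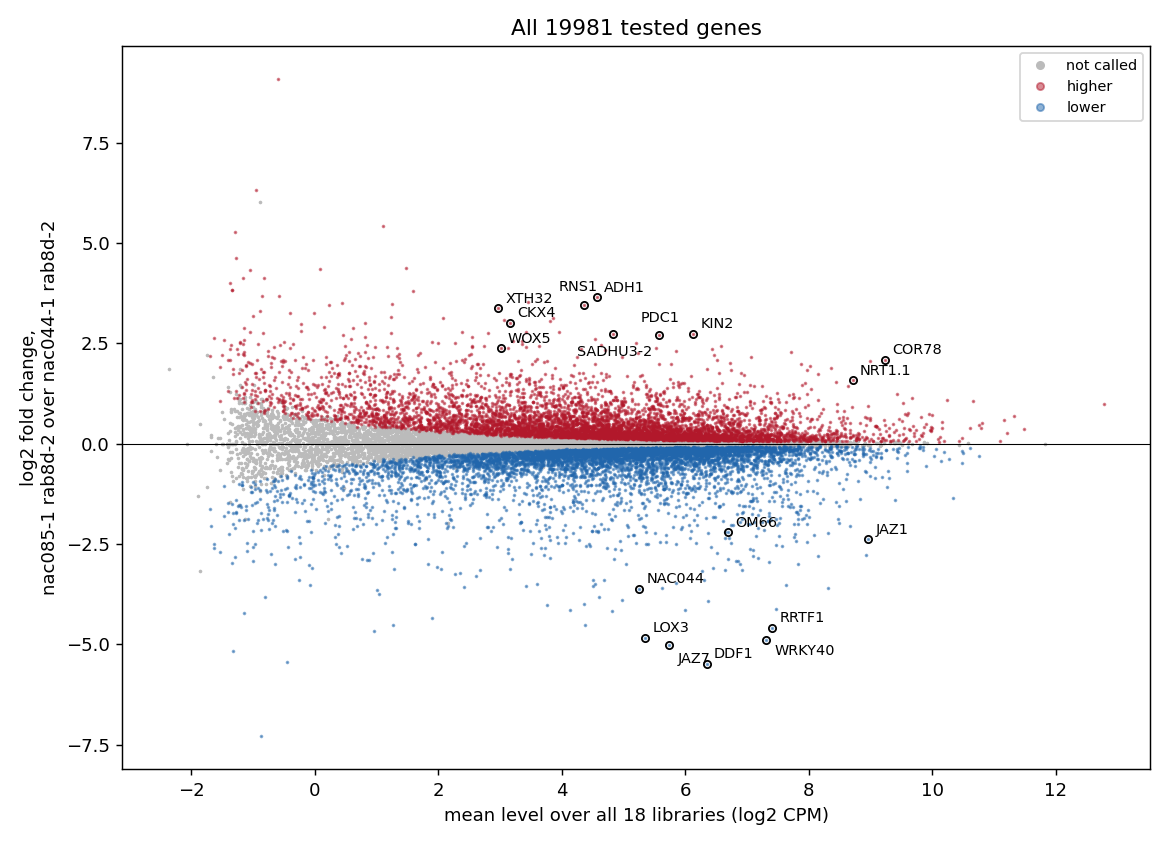
Log2 fold change of nac085-1 rab8d-2 over the libraries labelled nac044-1 rab8d-2 (y axis) against the mean level over all 18 libraries in log2 CPM (x axis) for each tested gene. Colours mark the 5856 higher and 5825 lower genes, and circles mark genes named in the text.

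Of the 36 lists, those of jasmonate and of touch and wounding had the lowest medians, with most members lower in nac085-1 rab8d-2. Jasmonate is a lipid hormone made from plastid fatty acids through lipoxygenases, AOS, AOC and OPR3, and JAZ proteins repress its signalling while being induced by it. Of 20 tested genes of a jasmonate list, 18 were lower and 1 was higher, with a median log2 fold change of -2.70. Over all tested genes 29.2% were lower and 29.3% higher, with a median of 9e-04. These shares stand beside each list count below. The jasmonate list, like all 36 lists, was chosen with earlier results of these data known, so the direction of a list is no independent evidence. The summed level of the list was 757 to 773 CPM in nac085-1 rab8d-2 and 3456 to 3564 CPM in the libraries labelled nac044-1 rab8d-2. In rab8d-2 it was 3111 to 3134 CPM and in WT 3083 to 3165 CPM, so nac085-1 rab8d-2 was the genotype that stood apart among these 4. On the first principal component its libraries lay nearest those of atm-2 rab8d-2. Levels of lists and genes in atm-2 rab8d-2 and sog1-1 rab8d-2 are not compared here or below. Whether a level is particular to nac085-1 rab8d-2 in the whole series was therefore not tested.

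Among the synthesis enzymes, LOX3, a 13-lipoxygenase, had 1.85, 1.77 and 2.52 CPM in nac085-1 rab8d-2, against 58.2, 57.4 and 59.8 CPM in the libraries labelled nac044-1 rab8d-2 (log2 fold change -4.83 ± 0.09, adjusted p = 1.08e-40). The groups lay far apart, and so did those of LOX4, with 1.17 to 1.87 CPM in nac085-1 rab8d-2, against 29.1 to 29.2 CPM in the libraries labelled nac044-1 rab8d-2 (-4.18 ± 0.10). The later steps differed less: AOS by -1.94 ± 0.04, AOC3 by -1.55 ± 0.04 and OPR3 by -1.18 ± 0.03. AOC1 did not pass the test (-0.49 ± 0.24, adjusted p = 0.095). ORA47, a factor that activates these synthesis genes, had 0.874, 0.836 and 1.09 CPM in nac085-1 rab8d-2, against 10.5, 11.4 and 10.8 CPM in the libraries labelled nac044-1 rab8d-2 (-3.54 ± 0.14). Both were under the 48.8 CPM of rab8d-2 and the 65.5 CPM of WT.

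Among the signalling genes, MYC2, the main jasmonate transcription factor, had 117, 121 and 120 CPM in nac085-1 rab8d-2, against 464, 475 and 470 CPM in the libraries labelled nac044-1 rab8d-2 (-1.98 ± 0.03, adjusted p = 2.26e-46). The JAZ repressors JAZ1, JAZ2, JAZ5, JAZ6, JAZ7, JAZ8, JAZ9 and JAZ10 were all lower, by log2 fold changes between -5.02 (JAZ7) and -2.38 (JAZ1). JAZ7 had 2.19, 3.29 and 3.12 CPM in nac085-1 rab8d-2, against 96.0, 91.3 and 92.1 CPM in the libraries labelled nac044-1 rab8d-2. AIB, a bHLH factor of this pathway, fell 17.8-fold (-4.15 ± 0.06). CYP94B3 and CYP94C1, which oxidise and so inactivate the active hormone, were also lower, CYP94C1 by -1.62 ± 0.05. VSP2, a vegetative storage protein gene known as a jasmonate output, went the other way, with 1.94, 2.02 and 1.88 CPM in nac085-1 rab8d-2, against 0.248, 0.0993 and 0.248 CPM in the libraries labelled nac044-1 rab8d-2 (3.25 ± 0.34, adjusted p = 9.75e-12).

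Of 14 tested touch and wounding genes, 12 were lower and 1 was higher, beside 29.2% lower and 29.3% higher over all genes. Their median was -2.10. Their summed level was 408 to 424 CPM in nac085-1 rab8d-2, against 1624 to 1696 CPM in the libraries labelled nac044-1 rab8d-2. WRKY40, a stress WRKY factor, had 6.46, 7.67 and 7.08 CPM in nac085-1 rab8d-2, against 214, 200 and 215 CPM in the libraries labelled nac044-1 rab8d-2, or 29.7-fold lower (-4.89 ± 0.05, adjusted p = 1.82e-50). RRTF1, an ERF factor known to respond to redox change and wounding, had 8.74, 8.50 and 9.60 CPM in nac085-1 rab8d-2, against 219, 212 and 214 CPM in the libraries labelled nac044-1 rab8d-2 (-4.59 ± 0.04). In both genes the groups were more than an order of magnitude apart, and rab8d-2 lay with the libraries labelled nac044-1 rab8d-2, at 230 and 233 CPM. The calmodulin-like gene CML39 was lower by -4.51 ± 0.11, TCH4, a wall-modifying enzyme, by -2.93 ± 0.04, and WRKY33, a defence factor, by -2.29 ± 0.04. ZAT6, a zinc finger factor, was higher by 0.45 ± 0.04. ERF115 did not pass the test (0.68 ± 0.30, adjusted p = 0.055); without nac085-1 rab8d-2 replicate 1 or the library labelled nac044-1 rab8d-2 replicate 1 the count of higher members was 2. In the DREB family, DDF1 showed the lowest log2 fold change of the genes ranked here, with 3.25, 2.75 and 3.42 CPM in nac085-1 rab8d-2, against 138, 142 and 142 CPM in the libraries labelled nac044-1 rab8d-2, or 44.7-fold lower (-5.48 ± 0.06, adjusted p = 2.98e-49). The other genes among the 15 lowest were JAZ7, LOX3, LOX4, CML39, AIB, BHLH92, ERF13, ERF11, WRKY46, AT2G25460, AT3G44870 and AT5G41750 beside WRKY40 and RRTF1. Handling of the roots, time of harvest and growth batch are not given by genotype in the labels, and their part in these differences was not tested.

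**Figure D3:**
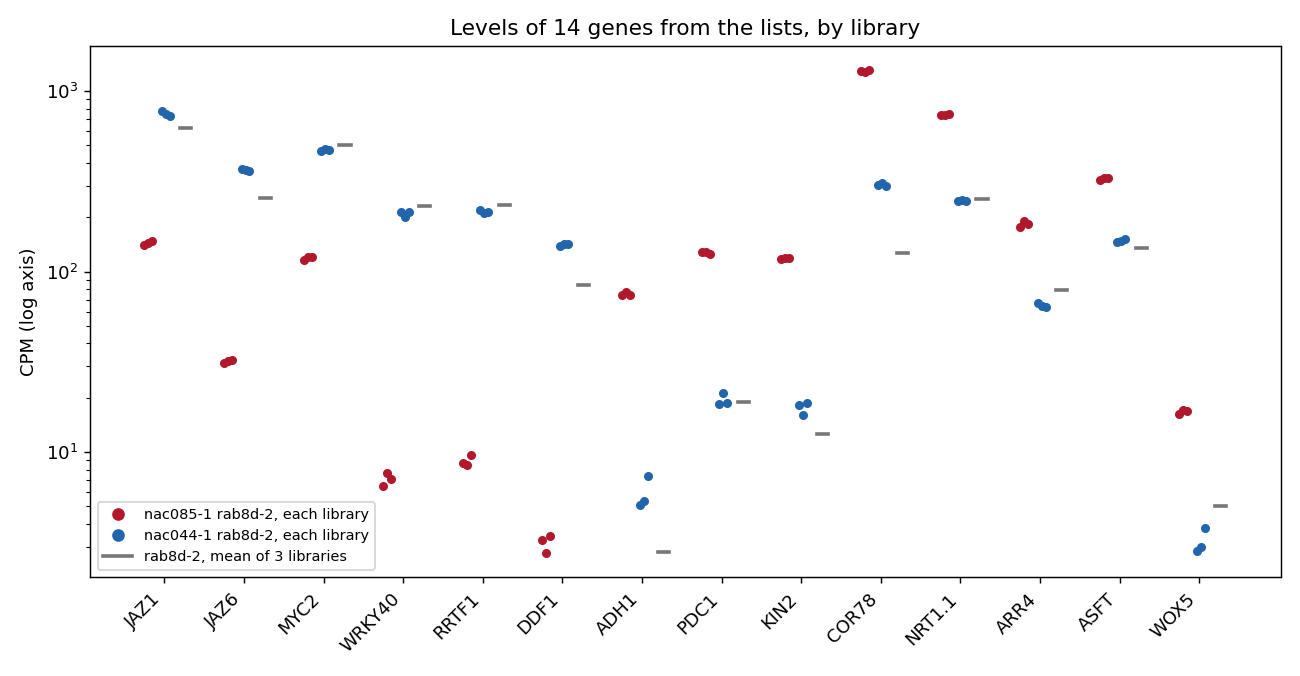
CPM (log axis) of 14 list members, with a point for each library of nac085-1 rab8d-2 and of the libraries labelled nac044-1 rab8d-2 and a bar for the rab8d-2 mean. The 3 libraries of a genotype lie close together, and for all 14 genes the rab8d-2 mean lies nearer the libraries labelled nac044-1 rab8d-2.

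Genes of the low-oxygen response were mostly higher in nac085-1 rab8d-2. ADH1, alcohol dehydrogenase of ethanol fermentation, had 74.1, 76.7 and 73.9 CPM in nac085-1 rab8d-2, against 5.12, 5.36 and 7.39 CPM in the libraries labelled nac044-1 rab8d-2, 12.6-fold higher (3.65 ± 0.07, adjusted p = 1.11e-39). PDC1, the pyruvate decarboxylase that feeds it, had 128, 129 and 126 CPM in nac085-1 rab8d-2, against 18.4, 21.2 and 18.8 CPM in the libraries labelled nac044-1 rab8d-2 (2.71 ± 0.04). Of 12 tested low-oxygen genes 10 were higher and 1 lower, with a median of 0.80, beside 29.3% higher and 29.2% lower over all genes. The oxygen-sensing cysteine oxidase gene PCO1 was higher by 1.57 ± 0.08, the regulator HRA1 by 1.54 ± 0.08, the sucrose synthase SUS4 by 1.05 ± 0.07 and the haemoglobin HB1 by 0.80 ± 0.07. HRE2, an ERF factor of this response, was lower (-0.69 ± 0.23, adjusted p = 0.00897), and PCO2 did not pass the test (0.23 ± 0.12, adjusted p = 0.090). The list summed to 578 to 591 CPM in nac085-1 rab8d-2, 270 to 285 CPM in the libraries labelled nac044-1 rab8d-2, 230 to 240 CPM in rab8d-2 and 240 to 246 CPM in WT.

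Members of the cold and dehydration list went both ways. Of 15 tested members 9 were higher and 5 lower, with a median of 0.76, beside 29.3% higher and 29.2% lower over all genes. Among the effectors, COR78 had 1292, 1281 and 1308 CPM in nac085-1 rab8d-2, against 301, 309 and 298 CPM in the libraries labelled nac044-1 rab8d-2 (2.09 ± 0.03, adjusted p = 1.98e-47). KIN2 had 118, 119 and 119 CPM in nac085-1 rab8d-2, against 18.23, 15.99 and 18.84 CPM in the libraries labelled nac044-1 rab8d-2 (2.74 ± 0.05), and its close copy KIN1 was higher by 3.14 ± 0.08. GOLS3, which makes galactinol for raffinose sugars, was higher by 3.06 ± 0.09, and the dehydrin genes COR47, ERD10 and LTI30 by 0.58, 0.54 and 0.76. Among the regulators, DDF1, DDF2 and CBF2 were lower by -5.48, -2.26 and -2.07, CBF1 was lower by -0.78 and CBF3 was higher by 2.11, both at low levels. The proline synthesis gene P5CS1 was lower by -0.13. The count of lower members was 3 against a fold of 1.2, without nac085-1 rab8d-2 replicate 1 and without the library labelled nac044-1 rab8d-2 replicate 3.

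Nutrient uptake genes were mostly higher in nac085-1 rab8d-2. NRT1.1, the dual-affinity nitrate transporter and sensor, had 736, 736 and 744 CPM in nac085-1 rab8d-2, against 247, 249 and 245 CPM in the libraries labelled nac044-1 rab8d-2, 2.99-fold higher (1.58 ± 0.03, adjusted p = 7.74e-43). The level in rab8d-2 was 253 CPM and in WT 415 CPM, so nac085-1 rab8d-2 lay above all of these. The ammonium transporters AMT1;1 and AMT1;3 were higher by 1.18 ± 0.04 and 1.37 ± 0.04, the nitrate regulator NLP7 by 0.80 ± 0.04 and the nitrite reductase NIR1 by 0.55 ± 0.03. NRT2.1, the high-affinity nitrate transporter, had 110 counts over the nac085-1 rab8d-2 libraries and 1 count over the libraries labelled nac044-1 rab8d-2, a ratio of 109 with a 95% exact binomial interval of 19.2 to 4348 that covers counting error only. Of 10 nitrogen genes 8 were higher and none lower, beside 29.3% higher and 29.2% lower over all genes. NIA1 and GLN1;4 did not pass the test (-0.02 ± 0.03 and 0.12 ± 0.09).

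Of 10 tested phosphate genes 8 were higher and 1 lower, beside 29.3% higher and 29.2% lower over all genes. RNS1, a secreted ribonuclease induced by low phosphate and wounding, had 44.3, 45 and 43.1 CPM in nac085-1 rab8d-2, against 3.48, 4.47 and 4.16 CPM in the libraries labelled nac044-1 rab8d-2 (3.45 ± 0.08, adjusted p = 3.76e-36), with 2.41 CPM in rab8d-2 and 0.251 CPM in WT. The phosphate transporters PHT1;4 and PHT1;1 were higher by 1.17 ± 0.04 and 0.59 ± 0.03 and the sensor gene SPX1 by 1.23 ± 0.06, while SQD2, of sulfolipid synthesis, was lower by -0.31 ± 0.04. Of 10 zinc deficiency genes 6 were higher and 1 lower, led by the transporter ZIP5, with 49.6, 51.1 and 48.6 CPM in nac085-1 rab8d-2, against 14.8, 14.5 and 14.4 CPM in the libraries labelled nac044-1 rab8d-2 (1.77 ± 0.06), and including the zinc sensor BZIP19 (0.68 ± 0.04). Of 11 iron and copper genes 7 were higher and 1 lower. The reductases FRO4 and FRO5, neighbours of similar sequence, were higher by 1.23 ± 0.05 and 2.42 ± 0.12, whereas the iron transporter IRT1 and the reductase FRO2 did not pass the test (-0.16 ± 0.14 and 0.27 ± 0.16). Sulfur starvation genes went both ways, with 3 of 12 higher, near the share of all genes, and 6 lower. The sulfate transporter SULTR1;2 was higher by 0.68 ± 0.03, and the repressor gene SDI1 and the sulfate reductase APR1 were lower by -1.26 ± 0.10 and -0.63 ± 0.04.

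All 12 tested cytokinin response genes were higher in nac085-1 rab8d-2, with a median of 1.00 and a summed level of 650.5 to 659.5 CPM, against 339 to 346 CPM in the libraries labelled nac044-1 rab8d-2, 378 to 388 CPM in rab8d-2 and 391 to 415 CPM in WT. Type-A response regulators are induced by cytokinin and dampen its signalling. ARR4 had 177, 191 and 183 CPM in nac085-1 rab8d-2, against 67.1, 64.8 and 63.8 CPM in the libraries labelled nac044-1 rab8d-2 (1.49 ± 0.04, adjusted p = 2.08e-32). ARR8 was higher by 1.21 ± 0.03, ARR9 by 0.86 ± 0.05 and ARR6 by 0.76 ± 0.04, and ARR5, a common cytokinin reporter gene, by 0.35 ± 0.04. CKX4, a cytokinin oxidase, had 7.19, 8.06 and 8.91 CPM in nac085-1 rab8d-2, against 0.845, 1.29 and 0.843 CPM in the libraries labelled nac044-1 rab8d-2 (3.01 ± 0.15), and lay also above its 1.62 CPM in rab8d-2.

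Of 18 tested auxin genes 12 were higher and none lower, with a median of 0.42, beside 29.3% higher and 29.2% lower over all genes. The auxin-conjugating enzymes GH3.6 and GH3.5 were higher by 1.42 ± 0.07 and 0.81 ± 0.07, and the carriers AUX1, LAX3 and PIN7 by 0.66 ± 0.03, 0.57 ± 0.03 and 0.60 ± 0.04. The carrier PIN2 did not pass the test (0.01 ± 0.03). In the root meristem list, 6 of 18 members were higher (3 against a fold of 1.2) and 1 lower, a share of higher members near the 29.3% of all genes. WOX5, which marks the quiescent centre, had 16.3, 17.1 and 16.9 CPM in nac085-1 rab8d-2, against 2.83, 2.98 and 3.82 CPM in the libraries labelled nac044-1 rab8d-2, 5.22-fold higher (2.38 ± 0.10, adjusted p = 4.33e-26). It averaged 5.02 CPM in rab8d-2 and 1.2 CPM in WT, so it was highest in nac085-1 rab8d-2 of these 4. The other stem cell niche genes moved little: PLT2 by 0.49 ± 0.11, SHR by 0.20 ± 0.06 and PLT3 by -0.23 ± 0.05, while SCR and PLT1 did not pass the test (0.08 ± 0.04 and 0.13 ± 0.08).

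Suberin is a lipid and phenolic polymer laid down in endodermis cell walls, and all 13 tested genes for its synthesis and export were higher in nac085-1 rab8d-2. Their median was 1.07, and they summed to 829 to 872 CPM in nac085-1 rab8d-2, against 424 to 442 CPM in the libraries labelled nac044-1 rab8d-2, 443 to 456 CPM in rab8d-2 and 942 to 952 CPM in WT. ASFT, the feruloyl transferase, had 320, 328 and 328 CPM in nac085-1 rab8d-2, against 147, 147 and 153 CPM in the libraries labelled nac044-1 rab8d-2 (1.13 ± 0.03, adjusted p = 4.54e-35). The fatty acid hydroxylase CYP86A1 was higher by 1.17 ± 0.04, the exporter ABCG6 by 1.07 ± 0.05 and the regulator MYB41 by 1.72 ± 0.15. Most markers of differentiated root cell types were also higher, by less, beside 29.3% higher and 29.2% lower over all genes. All 7 root hair markers (median 0.38), 6 of 8 endodermis markers (0.34), all 7 xylem markers (0.33), 4 of 6 phloem markers (0.29) and 2 of 4 root cap markers (0.24) were higher, and none was lower. Against a fold of 1.2 this held for 3 endodermis, 4 xylem, 2 phloem and 1 root cap marker. These 2 phloem markers were SEOR1 and SEOR2, the neighbours of NAC044 named above. The endodermis markers summed to 527 to 547 CPM in nac085-1 rab8d-2 and 423 to 441 CPM in the libraries labelled nac044-1 rab8d-2, and the xylem markers to 543 to 555 CPM in nac085-1 rab8d-2 and 435 to 442 CPM in the libraries labelled nac044-1 rab8d-2. In rab8d-2 the endodermis markers summed to 386 to 390 CPM and the xylem markers to 268 to 270 CPM. In WT the sums were 573 to 599 CPM and 501 to 514 CPM. For both lists each double mutant thus lay above rab8d-2. The shoot markers summed to 4.65 to 5.36 CPM in nac085-1 rab8d-2 and 4.56 to 5.71 CPM in the libraries labelled nac044-1 rab8d-2, and none of 3 passed the test. In whole roots, more cells of a type and more RNA per cell cannot be told apart, and the part of cell composition in the other results was not tested.

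**Figure D4:**
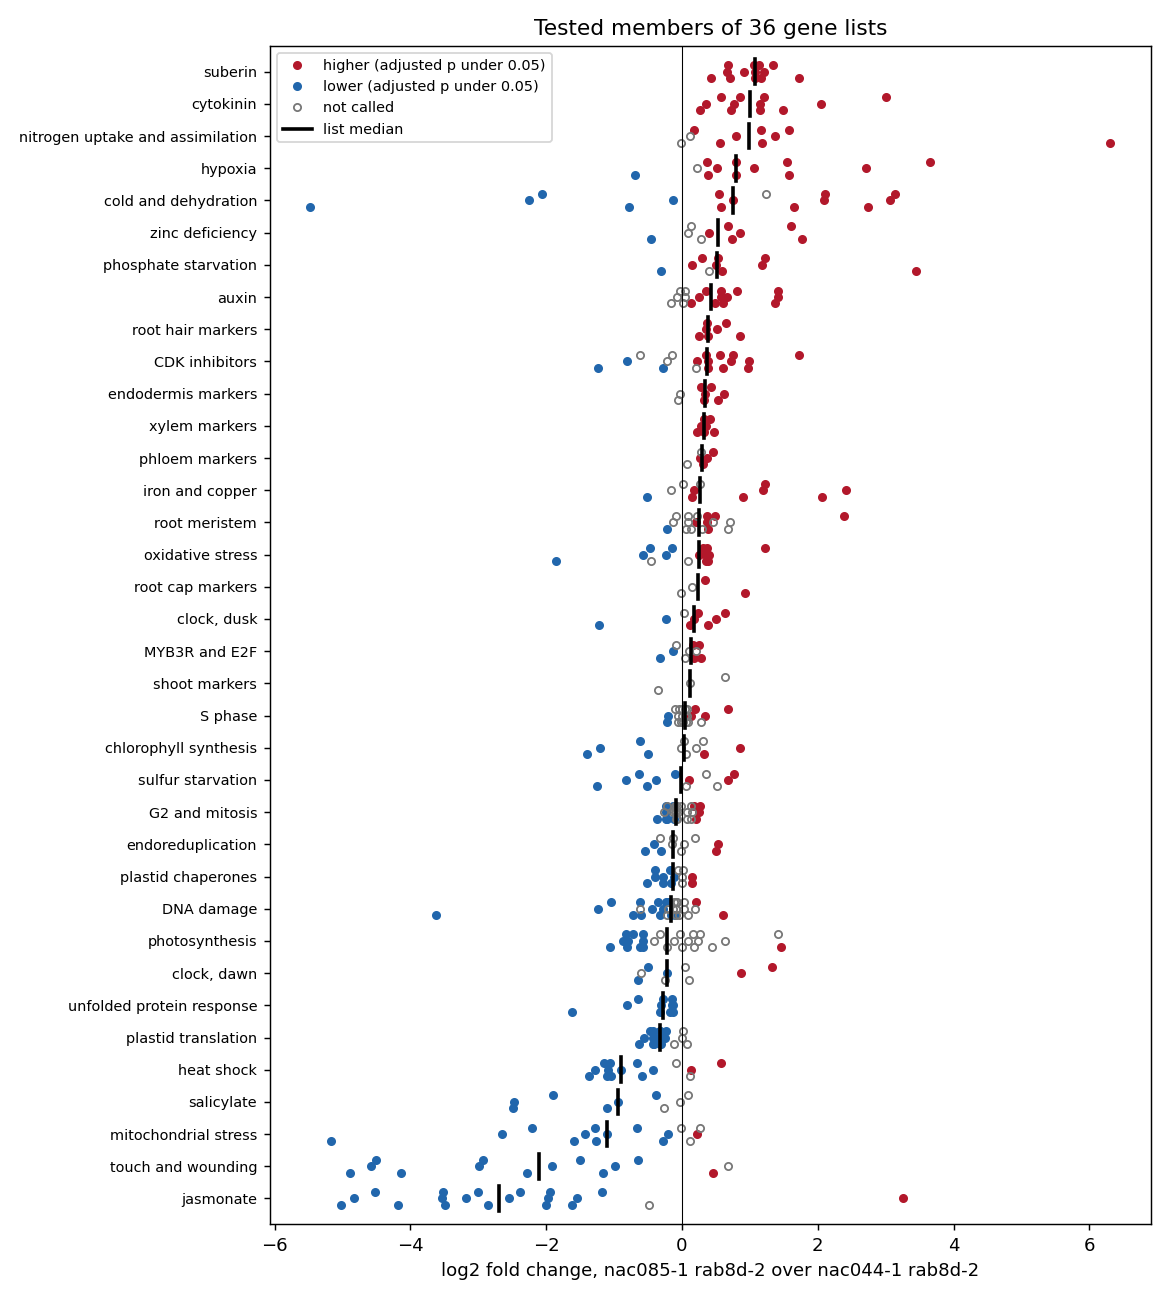
Log2 fold change (x axis) of every tested member of 36 gene lists, nac085-1 rab8d-2 over the libraries labelled nac044-1 rab8d-2, with filled points for members past the threshold and a bar for the list median. The points of AOX1D, NRT2.1, PSAL and RBCS3B rest on groups at or near 0 counts. Medians run from -2.70 for jasmonate to 1.07 for suberin synthesis.

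Genes of the DNA damage response differed modestly. Of 31 tested members 14 were lower, 2 higher and 15 not called, with a median of -0.16, beside 29.2% lower over all genes. Against a fold of 1.2, 7 were lower and 1 higher, and 1 was higher without nac085-1 rab8d-2 replicate 2 or 3 or without replicate 1 or 3 of the label nac044-1 rab8d-2. Apart from NAC044, NAC085 and ATM, the lower members with the smallest p were BRCA1, RAD17 and POLQ. BRCA1, of recombination repair, had 13, 13.1 and 13.3 CPM in nac085-1 rab8d-2, against 22.3, 21.5 and 21.4 CPM in the libraries labelled nac044-1 rab8d-2 (-0.73 ± 0.06, adjusted p = 9.56e-14), and 27.5 CPM in rab8d-2. RAD17, a checkpoint clamp loader, had 10.9, 11.3 and 10.3 CPM in nac085-1 rab8d-2, against 16.6, 16.6 and 15.9 CPM in the libraries labelled nac044-1 rab8d-2 (-0.60 ± 0.07), and 23.0 CPM in rab8d-2. For both genes each double mutant lay under rab8d-2, and nac085-1 rab8d-2 lay lower. The polymerase theta gene POLQ, for end joining, was lower by -0.45 ± 0.06 and the checkpoint kinase ATR by -0.32 ± 0.07. The calls of KU70 (-0.10) and GMI1 (-0.16) were lost without nac085-1 rab8d-2 replicate 1 (adjusted p = 0.107 and 0.0748), without the library labelled nac044-1 rab8d-2 replicate 3 (0.0792 and 0.0717) and, for KU70, without replicate 1 of that label (0.0833), under upper quartile scaling (0.128) and with DESeq2 (0.101). Neither passed against a fold of 1.2.

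NAC103, another NAC factor that SOG1 regulates, had 5.78, 6.68 and 6.88 CPM in nac085-1 rab8d-2 and 5.71, 5.27 and 5.90 CPM in the libraries labelled nac044-1 rab8d-2, against 21.9 CPM in rab8d-2. The double mutants did not differ past the threshold (0.20 ± 0.10, adjusted p = 0.103), except without nac085-1 rab8d-2 replicate 1 (0.27, adjusted p = 0.0408). PARP2 and TSO2 were likewise not called (-0.07 ± 0.06 and -0.05 ± 0.04), and both genotypes lay under rab8d-2, by -0.73 and -0.66 for PARP2 and by -0.54 and -0.49 for TSO2, in nac085-1 rab8d-2 and in the libraries labelled nac044-1 rab8d-2. Over the whole list the median against rab8d-2 was -0.46 in nac085-1 rab8d-2 and -0.26 in the libraries labelled nac044-1 rab8d-2, 2 values that share their rab8d-2 libraries.

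**Figure D5:**
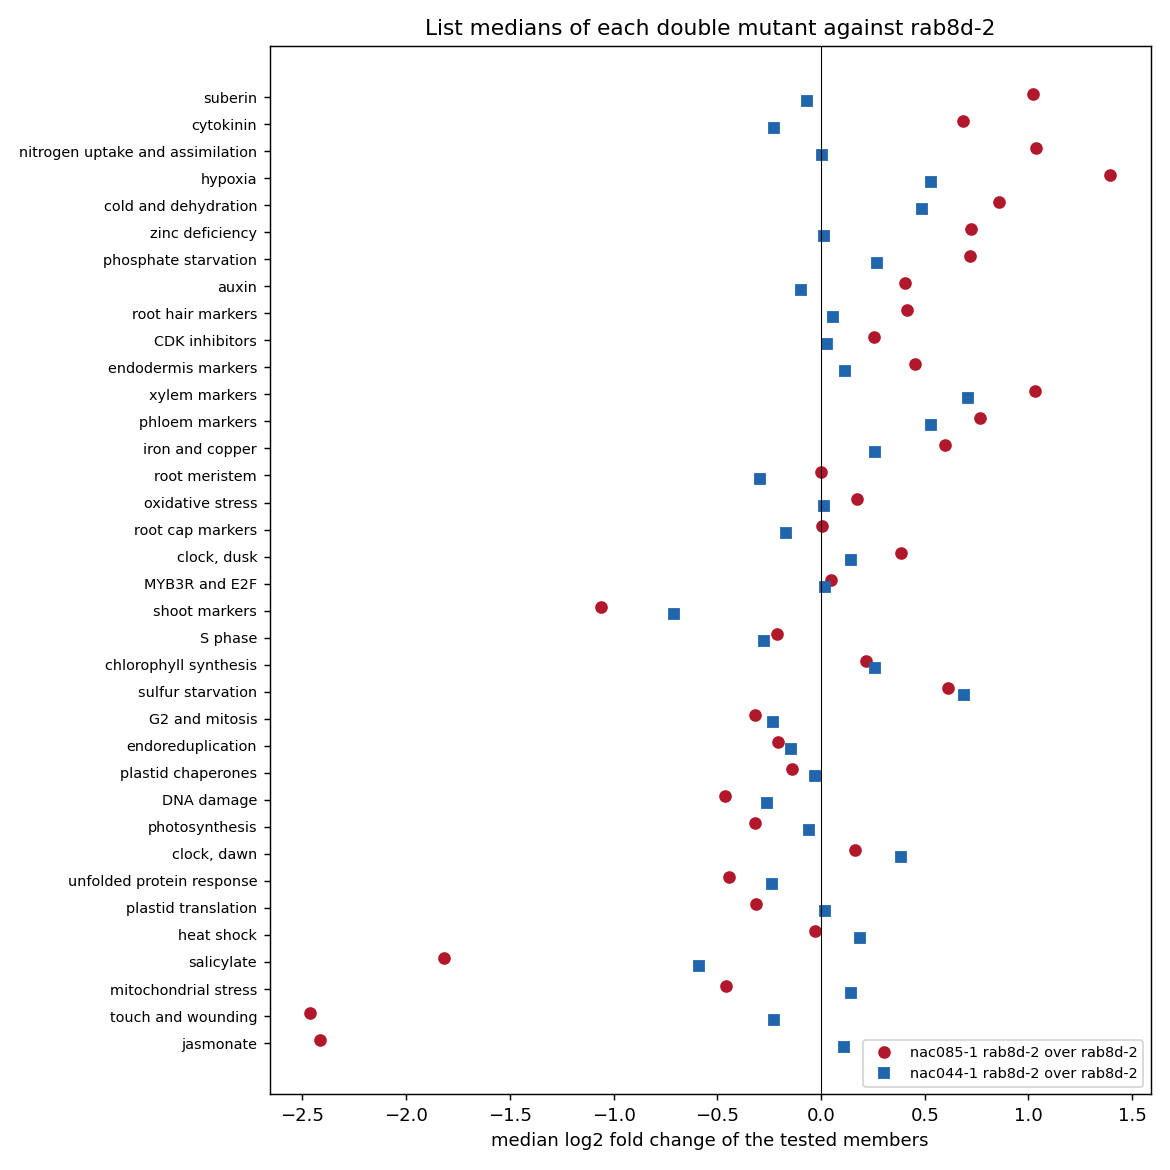
Median log2 fold change against rab8d-2 (x axis) of the tested members of each list, circles for nac085-1 rab8d-2 and squares for the libraries labelled nac044-1 rab8d-2, which share the rab8d-2 libraries. The jasmonate medians are -2.41 and 0.11, and those of suberin synthesis 1.02 and -0.07.

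Inhibitors of cyclin-dependent kinases, which hold the cell cycle, were mostly higher: 11 of 18 rose, 3 fell and 4 were not called, with a median of 0.37. The shares over all genes were 29.3% higher and 29.2% lower. KRP2 had 24.0, 21.5 and 21.6 CPM in nac085-1 rab8d-2, against 11.1, 10.5 and 12.1 CPM in the libraries labelled nac044-1 rab8d-2 (0.99 ± 0.07, adjusted p = 8.33e-17). SIM was higher by 0.55 ± 0.05 and SMR1 by 0.38 ± 0.07. The damage-induced members went apart: SMR7 was higher by 0.60 ± 0.15, SMR4 was lower by -1.23 ± 0.18, with 1.21, 1.62 and 1.78 CPM in nac085-1 rab8d-2, against 3.48, 3.48 and 3.92 CPM in the libraries labelled nac044-1 rab8d-2, and SMR5 did not pass the test (-0.62 ± 0.45).

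Of 27 tested G2 and mitosis genes, the class that NAC044 and NAC085 are known to affect, 4 were higher, 7 lower and 16 not called, beside 29.3% higher and 29.2% lower over all genes, with log2 fold changes between -0.37 and 0.27 and a median of -0.09. B-type cyclins went both ways, with CYCB1;4 higher by 0.25 ± 0.06 and CYCB1;3, CYCB2;3 and CYCB2;4 lower by -0.24, -0.23 and -0.23. CYCB1;1, which is both a mitotic and a damage-induced cyclin, had 11.2, 13.1 and 12.1 CPM in nac085-1 rab8d-2, against 9.94, 11.0 and 10.7 CPM in the libraries labelled nac044-1 rab8d-2 (0.20 ± 0.08, adjusted p = 0.0388). Its groups did not overlap, but the call was lost without nac085-1 rab8d-2 replicate 2 or 3 (adjusted p = 0.215 and 0.0691) or without the library labelled nac044-1 rab8d-2 replicate 1 or 3 (0.151 and 0.0592), and with DESeq2 (0.099) and against a fold of 1.2. Without replicate 2 or 3 of nac085-1 rab8d-2, or replicate 1 of the label nac044-1 rab8d-2, the count of higher G2 and mitosis genes was 1 or 2, and no member of the list passed a test against a fold of 1.2. The CDKB kinase genes did not pass the test. In the endoreduplication list, 2 of 11 members were higher, 3 lower and 6 not called, with a median of -0.13. The cyclosome activators CCS52A1 and CCS52A2 were higher by 0.54 ± 0.06 and 0.49 ± 0.07. The A2 cyclins CYCA2;3 and CYCA2;4 were lower by -0.54 ± 0.07 and -0.41 ± 0.07. The other lower member, CYCA3;1 (-0.31), lost its call under upper quartile scaling, with DESeq2 and against a fold of 1.2. CCS52A1 had 27.1, 27.4 and 26.8 CPM in nac085-1 rab8d-2, against 18.3, 19.1 and 18.7 CPM in the libraries labelled nac044-1 rab8d-2. S phase genes stayed near 0, with 4 of 21 higher, 2 lower and a median of 0.04, and of 10 MYB3R and E2F genes 4 were higher and 2 lower, MYB3R4, an activator of mitotic genes, by -0.33 ± 0.07. These counts rest on small differences. Against a fold of 1.2, no MYB3R or E2F gene passed, and 1 S phase gene was higher and none lower. With DESeq2, 2 MYB3R and E2F genes were higher and 1 S phase gene was lower. Without nac085-1 rab8d-2 replicate 1 or 3, or replicate 2 or 3 of the label nac044-1 rab8d-2, 1 S phase gene was lower. Leaving out replicate 2 of that label, 2 S phase genes were higher and 1 MYB3R or E2F gene was lower. Without replicate 3 of either genotype, 2 MYB3R and E2F genes were higher.

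Stress genes of organelles and the cytosol were lower in nac085-1 rab8d-2. Of 15 mitochondrial stress genes 11 were lower and 1 higher, with a median of -1.10, beside 29.2% lower and 29.3% higher over all genes. OM66, an outer membrane protein gene and marker of mitochondrial retrograde signalling, had 26.2, 27.1 and 27.0 CPM in nac085-1 rab8d-2, against 121, 126 and 124 CPM in the libraries labelled nac044-1 rab8d-2 (-2.21 ± 0.04, adjusted p = 1.73e-39). The carrier DIC2 was lower by -2.66 ± 0.05 and the alternative oxidase AOX1A by -0.66 ± 0.03, whereas NAC017, the membrane-bound factor that starts this response, did not pass the test (-0.01 ± 0.03). AOX1D had 0 counts in nac085-1 rab8d-2 and 13 in the libraries labelled nac044-1 rab8d-2, at least 4.37-fold lower by a floor of 3 counts over the group. The alternative dehydrogenase NDB2 was higher by 0.23 ± 0.03, and 2 members were higher without replicate 3 of either genotype.

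Of 15 cytosolic heat shock genes 11 were lower and 2 higher, with a median of -0.89, beside 29.2% lower and 29.3% higher over all genes. HSP90.1 had 42.9, 38 and 37.5 CPM in nac085-1 rab8d-2, against 88.1, 86.8 and 87.6 CPM in the libraries labelled nac044-1 rab8d-2 (-1.15 ± 0.04, adjusted p = 6.1e-28), and the disaggregase HSP101 was lower by -0.89 ± 0.06 and the factor HSFA2 by -1.28 ± 0.20. The higher members were HSFB1 and HSP18.2 (0.13 and 0.58), and 1 was higher without nac085-1 rab8d-2 replicate 2 or 3 or replicate 1 of the label nac044-1 rab8d-2. With DESeq2 1 was higher, and against a fold of 1.2 none was. All 11 genes of the unfolded protein response of the endoplasmic reticulum were lower (3 against a fold of 1.2), with a median of -0.28. They ran from the chaperone BIP3 at -1.62 ± 0.58, the factor BZIP60 at -0.81 ± 0.04 and the co-chaperone ERDJ3A at -0.65 ± 0.09 to PDIL2-1, a disulfide isomerase, at -0.13 ± 0.03, with the chaperones BIP1 and BIP2 at -0.18 ± 0.02 and -0.28 ± 0.02. Of 9 salicylate genes 6 were lower and none higher, among them the defence regulators PAD4 (-1.90 ± 0.04), EDS5 (-1.11 ± 0.03) and EDS1 (-0.39 ± 0.04). ICS1, which starts salicylate synthesis, did not pass the test (0.09 ± 0.08). Oxidative stress genes went both ways, with 8 of 15 higher and 5 lower (3 lower against a fold of 1.2), from the oxidase RBOHD at -1.85 ± 0.04 to the peroxidase PRX34 at 1.23 ± 0.03.

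Nuclear genes for plastid translation, the process that RAB8D serves, were lower in 15 of 19 cases and higher in none, with a median of -0.33, and against a fold of 1.2 in 7. The shares over all genes, beside each count of this paragraph, were 29.2% lower and 29.3% higher. FUG1, a plastid initiation factor, had 16.3, 16.3 and 14.7 CPM in nac085-1 rab8d-2, against 23.9, 22.6 and 26.5 CPM in the libraries labelled nac044-1 rab8d-2 (-0.63 ± 0.07, adjusted p = 5.02e-11), and SCO1, the plastid elongation factor G, was lower by -0.43 ± 0.05. Plastid chaperone and protease genes were lower in 8 of 14 cases and higher in 2 (1 without nac085-1 rab8d-2 replicate 3 or replicate 2 of the label nac044-1 rab8d-2), with HSP90.5 at -0.52 ± 0.03. Against a fold of 1.2, 3 of them were lower and none higher. Of 25 photosynthesis genes, at low levels in these roots, 10 were lower and 1 higher (2 without replicate 2 of the label nac044-1 rab8d-2), among them LHCB4.1 at -0.72 ± 0.07 and PSBO2 at -1.06 ± 0.10. Of 11 tested genes of the chlorophyll synthesis list 2 were higher, 4 lower and 5 not called, with a median of 0.03. HEMA1, the first committed enzyme of tetrapyrrole synthesis, had 65.7, 62.7 and 63.1 CPM in nac085-1 rab8d-2 and 169 CPM in each library labelled nac044-1 rab8d-2 (-1.40 ± 0.03, adjusted p = 2.3e-36). CAO and CHLD were also lower, by -1.21 ± 0.15 and -0.49 ± 0.06. GLK2, an activator of photosynthesis genes, was higher by 0.86 ± 0.11, and GUN1, of plastid-to-nucleus signalling, by 0.32 ± 0.03.

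Clock genes mark the time of day. Of 9 genes with a peak around dawn 2 were higher and 3 lower, near the shares of 29.3% and 29.2% over all genes, and CCA1 and LHY, the core morning factors, did not pass the test (0.05 ± 0.25 and -0.60 ± 0.29). Of 9 with a peak around dusk 6 were higher and 2 lower (3 and 1 against a fold of 1.2), among them PRR5 at 0.64 ± 0.05, GI at 0.18 ± 0.03 and TOC1 at -0.24 ± 0.03. BOA, a paralogue of LUX, had 21.3, 20.8 and 20.9 CPM in nac085-1 rab8d-2, against 47.6, 50.9 and 48.5 CPM in the libraries labelled nac044-1 rab8d-2 (-1.22 ± 0.05), while LUX itself did not pass the test (0.04 ± 0.03). These values stand beside the stress and nutrient results above, and the part of harvest time in them was not tested.

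Among the 15 highest genes, SADHU3-2, AT5G55270 and AT2G16005 differed less from rab8d-2 in nac085-1 rab8d-2 than they did in the libraries labelled nac044-1 rab8d-2. SADHU3-2, a retroelement-derived locus, had 55.3, 53.4 and 56.1 CPM in nac085-1 rab8d-2, against 9.29, 7.30 and 8.13 CPM in the libraries labelled nac044-1 rab8d-2 (2.74 ± 0.06, adjusted p = 4.77e-37). It averaged 70.1 CPM in rab8d-2 and 3.93 CPM in WT. AT5G55270, annotated as a DUF295 protein, had 5.05, 5.31 and 5.40 CPM in nac085-1 rab8d-2, against 0.596, 0.497 and 0.694 CPM in the libraries labelled nac044-1 rab8d-2 (3.13 ± 0.21), with 7.38 CPM in rab8d-2 and 0.217 CPM in WT. Against rab8d-2, SADHU3-2 was lower by -0.35 in nac085-1 rab8d-2 and by -3.09 in the libraries labelled nac044-1 rab8d-2. AT5G55270 was lower by -0.49 in nac085-1 rab8d-2 and by -3.62 in the libraries labelled nac044-1 rab8d-2, and both comparisons share the rab8d-2 libraries. AT2G16005 lay on either side of rab8d-2, higher by 0.89 in nac085-1 rab8d-2 and lower by -1.89 in the libraries labelled nac044-1 rab8d-2. The wall enzyme gene XTH32 had 18.3, 17.1 and 18.9 CPM in nac085-1 rab8d-2, against 1.09, 2.19 and 1.93 CPM in the libraries labelled nac044-1 rab8d-2. The remaining genes among the 15 highest were ARGOS, a regulator of organ size, FTM1, a stearoyl desaturase-like gene, and AT4G37700, AT5G37990 and AT3G26460. ADH1, RNS1, KIN1, KIN2, GOLS3 and CKX4 above complete them.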

How the data were processed

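Poly(A) RNA was sequenced from roots, and groups follow the sample titles. The authors deposited estimated counts per gene made with RSEM 1.3.1, per the submitters' processing notes, beside TPM and FPKM values scaled by the authors, which gave no printed value. Aligner, genome build, annotation and strand are not given in the sources used here. No coordinates or sequences are therefore printed, and reads of overlapping genes or near-identical copies (KIN1 and KIN2, FRO4 and FRO5, FAR4 and FAR5) may be split or shared. Of 25537 locus identifiers 25462 matched RefSeq, which gave the symbols, except that most list genes carry the name used in the list. Some list names, among them POLQ and CML39, were assigned to a locus by hand.

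The estimated counts were rounded, scaled by TMM and fitted in edgeR 4.0.16 (R 4.3.3), after its own filter on low counts (19981 genes kept), with 1 mean per genotype over all 18 libraries, followed by a quasi-likelihood test and Benjamini-Hochberg adjustment over all genes. An adjusted p under 0.05 counts as changed, and ± is the standard error. The code was tested on simulated data. Replicate pairs varied 1.33 to 2.16 times as much as sampling of reads would give, and each library counted once.

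Named genes are the mutated genes, 5 tested neighbours on each side of NAC044 and NAC085, the DNA damage list, the 15 highest and 15 lowest called genes without overlap (average log2 CPM 1 or above), and up to 5 members per list; further list members were named after their values were seen. The 36 lists and their members were chosen with earlier results of these data known. Alternatives were other scalings, no filter, DESeq2 1.42.0, glmTreat, the 6 libraries alone, a replicate block and each library left out. Some list members are counted but not reported by name here.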

Additional observations from a re-analysis of the deposited data

How the results depend on the processing

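The counts of called genes moved by over 1.5 times under 1 alternative, the test against a fold of 1.2, with 2912 higher and 2642 lower in place of 5856 and 5825; that test asks for a larger difference by construction. Leaving out each library in turn gave 5454 to 5532 higher and 5412 to 5517 lower genes, and 901 to 967 and 875 to 901 at least 2-fold. Upper quartile scaling moved the median log2 fold change of all genes to 0.03 and the share of higher calls to 55.66%, from 50.13%. DESeq2 called 5185 higher and 5050 lower. Replicate numbers did not pair the libraries (correlations of same-numbered deviations -0.217, -0.0158 and -0.105), and with a replicate block 5850 genes were higher and 5810 lower. Of 241 named genes 189 kept their call under each alternative run, 52 changed it under at least 1 and none reversed; under upper quartile scaling SOG1 was called (0.12, adjusted p = 0.042). Low counts limit NAC085, SMR5, AOX1D, NRT2.1, VSP2 and BHLH92, among others. Of the photosynthesis genes, PSAL had 6 counts over the nac085-1 rab8d-2 libraries and 2 over the libraries labelled nac044-1 rab8d-2, and RBCS3B had 0 in both.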

Other observations

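Some gene families, chosen after the values were seen and collected by RefSeq symbol, were not part of the lists. Expansins, which loosen cell walls in growing cells, were higher in nac085-1 rab8d-2 in 14 of 18 tested cases and lower in none. Over all genes 29.3% were higher and 29.2% lower. EXPB3 had 27.6, 28.0 and 27.8 CPM in nac085-1 rab8d-2, against 9.39, 11.1 and 8.18 CPM in the libraries labelled nac044-1 rab8d-2 (log2 fold change 1.54 ± 0.07, adjusted p = 2.78e-23), and EXPA8 was higher by 1.73 ± 0.11. XTH genes, which cut and rejoin xyloglucan, went both ways, with 12 of 24 higher and 9 lower: XTH28 had 60.1, 58.8 and 61.2 CPM in nac085-1 rab8d-2, against 24.1, 21.9 and 21.7 CPM in the libraries labelled nac044-1 rab8d-2, and XTH24 had 135, 131 and 139 CPM in nac085-1 rab8d-2, against 388, 395 and 395 CPM in the libraries labelled nac044-1 rab8d-2. Of 15 aquaporin genes 8 were higher and none lower. Of these, NIP2;1 had the largest log2 fold change, with 10.4, 9.29 and 9.46 CPM in nac085-1 rab8d-2, against 0.745, 0.646 and 0.694 CPM in the libraries labelled nac044-1 rab8d-2 (3.79 ± 0.16, adjusted p = 2.6e-25) and 0.305 CPM in rab8d-2.

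In the NAC family itself, 29 of 63 tested genes were higher and 14 lower, and at least 2-fold 7 were higher and 6 lower. Over all genes 29.3% were higher and 29.2% lower, and at least 2-fold 4.59% and 4.4%. NAC097 had 21.08, 20.8 and 18.9 CPM in nac085-1 rab8d-2, against 4.27, 3.68 and 3.67 CPM in the libraries labelled nac044-1 rab8d-2 (2.39 ± 0.09), and NAC062 had 51.0, 49.9 and 47.3 CPM in nac085-1 rab8d-2, against 146, 145 and 146 CPM in the libraries labelled nac044-1 rab8d-2 (-1.56 ± 0.04). Of 55 WRKY factors 24 were higher and 19 lower, and at least 2-fold 6 were higher and 11 lower: WRKY29 had 212, 203 and 202 CPM in nac085-1 rab8d-2, against 87.7, 86.1 and 87.5 CPM in the libraries labelled nac044-1 rab8d-2, and stood at 48.9 CPM in rab8d-2 and 14.7 CPM in WT. Of 33 UMAMIT amino acid transporters 15 were higher and 7 lower. Of 14 Argonaute, Dicer-like and RNA-dependent RNA polymerase genes, which make and use small RNAs, 2 were higher and 8 lower, DCL4 by -0.61 ± 0.05, AGO3 by -1.96 ± 0.22.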
